A study of Mus musculus with 44 samples.

Results

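The 9 genes described here (*Xcr1*, *Clec9a*, *Batf3*, *Irf8*, *Cadm1*, *Wdfy4*, *Id2*, *Cd8a* and *Naaa*) mark conventional dendritic cells of type 1 (cDC1s) or build them. They were chosen by symbol from the 14699 genes of the deposited expression table as known markers and regulators of cDC1s, with earlier results of these data known. All 9 were listed there, and all 9 passed the filter on low values, at least 1 CPM in at least 5 libraries, that left 11963 genes for testing.

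The study asked whether dendritic cells (DCs) that reach a lymph node after tumour engraftment differ by time of day. Inguinal lymph nodes yielded the CD45+CD11c+MHCII-high cells, which were sequenced in bulk, with 1 library per mouse. The paper describes the cells of this gate as migratory DCs, and it lists the CD8+ subset of lymph node DCs as MHCII-low. The labels give 3 groups: WT mice injected under the skin with B16-F10-OVA cells, a mouse melanoma line that makes ovalbumin (20 libraries, 5 per timepoint), KO mice that received the same cells (12 libraries, 3 per timepoint), and WT mice sham-injected with PBS (12 libraries, 3 per timepoint). The timepoints were ZT3, ZT9, ZT15 and ZT21, counted in hours from light onset, and cells were collected 24 h after the injection. All mice were females 8 to 12 weeks old. The KO mice were homozygous for a floxed *Bmal1* (*Arntl*) allele and heterozygous for *Clec9a-cre*, so that Cre is made where the *Clec9a* promoter is active, in conventional DCs and their precursors. Whether the WT mice carried a floxed allele or Cre is not given in the sources used here. Per the paper's general methods, light-tight cabinets moved mice to their phase of the day when several timepoints were studied at once. The tumour groups came from 2 independent experiments, without a record in the sources used here of which mouse belonged to which.

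Conventional DCs fall into 2 main kinds. The cDC1s take up dead cells and pass their antigens to CD8+ T cells, a route called cross-presentation, and they are the kind most closely tied to T cell responses against tumours. Their development depends on a circuit of transcription factors: IRF8 drives the lineage, BATF3 keeps *Irf8* switched on, and ID2 restrains E proteins that favour plasmacytoid DCs. XCR1 is the receptor for the chemokine XCL1 made by NK cells and CD8+ T cells. CLEC9A binds actin exposed by dead cells, CADM1 is an adhesion molecule whose partner on activated lymphocytes is CRTAM, and the CD8α chain marks cDC1s that reside in the lymph node but is also made by CD8+ T cells. WDFY4 is needed for cross-presentation of cell-associated antigen, and NAAA is a lysosomal enzyme that breaks down N-acylethanolamines.

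Depth and the makeup of the sorted cells differed among the groups. The number of reads on genes ran from 20088012 to 28962672 in WT tumour libraries, from 29406730 to 55799163 in KO tumour libraries and from 28003329 to 49590055 in PBS libraries. Every WT tumour library was thus shallower than every KO tumour library, where depth and group cannot be told apart, and all WT tumour libraries but 1 were shallower than every PBS library. *Arntl*, the gene of the floxed allele, was 14.8 ± 3.65 CPM (read counts scaled so that every library has the same total; SD, n = 20) in WT tumour libraries and 19.9 ± 6.91 CPM (n = 12) in libraries labelled KO. It was thus not lower but higher in the libraries labelled KO than in WT tumour libraries, by 0.38 on the log2 scale (limma, SE 0.13, adjusted p = 0.01972). PBS libraries had 21.7 ± 6.11 CPM (n = 12), and WT tumour libraries were also lower than these, by 0.52 (limma, adjusted p = 0.001132). CPM over a whole gene cannot show whether part of it was deleted, so the deletion was not tested. The label KO is used here as a name. The summed level of 10 genes shared by conventional DCs (among them *Itgax* and *H2-Aa*) was 14660 to 28260 CPM in WT tumour libraries. It was 15960 to 28050 CPM in KO tumour and 19500 to 27360 CPM in PBS libraries, with medians of 18570, 19320 and 22900 CPM for the 3 groups. Of the markers of the gate, *H2-Aa* (MHCII) had means of 2539, 2227 and 2716 CPM in WT tumour, KO tumour and PBS libraries. *Itgax* (CD11c) was far lower, with means of 43.0, 47.2 and 55.0 CPM, respectively. In sorted bulk cells, fewer cells of one kind and less RNA per cell cannot be told apart.

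Markers of other cells moved with the groups. The summed level of 11 macrophage and monocyte genes was 408 to 1108 CPM in WT tumour libraries, 877 to 3323 in KO tumour libraries and 1779 to 3262 in PBS libraries. That of 10 NK cell genes was 73.1 to 128 CPM, 102 to 282 and 174 to 793, respectively, and that of 10 plasmacytoid DC genes was 144 to 261, 140 to 345 and 280 to 448. For macrophages, plasmacytoid DCs and NK cells, no WT tumour library reached the lowest PBS library. The same held for cDC2 genes, with 377 to 610 CPM in WT tumour and 662 to 1070 CPM in PBS libraries. The 14 cDC2 genes had medians of 474, 640 and 823 CPM, and the 20 T cell genes 823, 891 and 1094 CPM. Of the 12 B cell genes the sums had medians of 143, 157 and 164 CPM, with *Pax5* at no more than 0.817 CPM in any library. The 6 melanoma genes of the table summed to medians of 2.20, 2.95 and 3.70 CPM, with 1 KO tumour library at 22.1 CPM. Most of it in WT tumour and PBS libraries was *Pmel* and *Mitf*, whereas *Mlana*, *Tyrp1* and *Dct* had means of 0.0163, 0.0886 and 0.0105 CPM in WT tumour libraries and were listed at 0 CPM in every PBS library. The part of any of these cells in the results below was not tested.

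**Figure D1:**
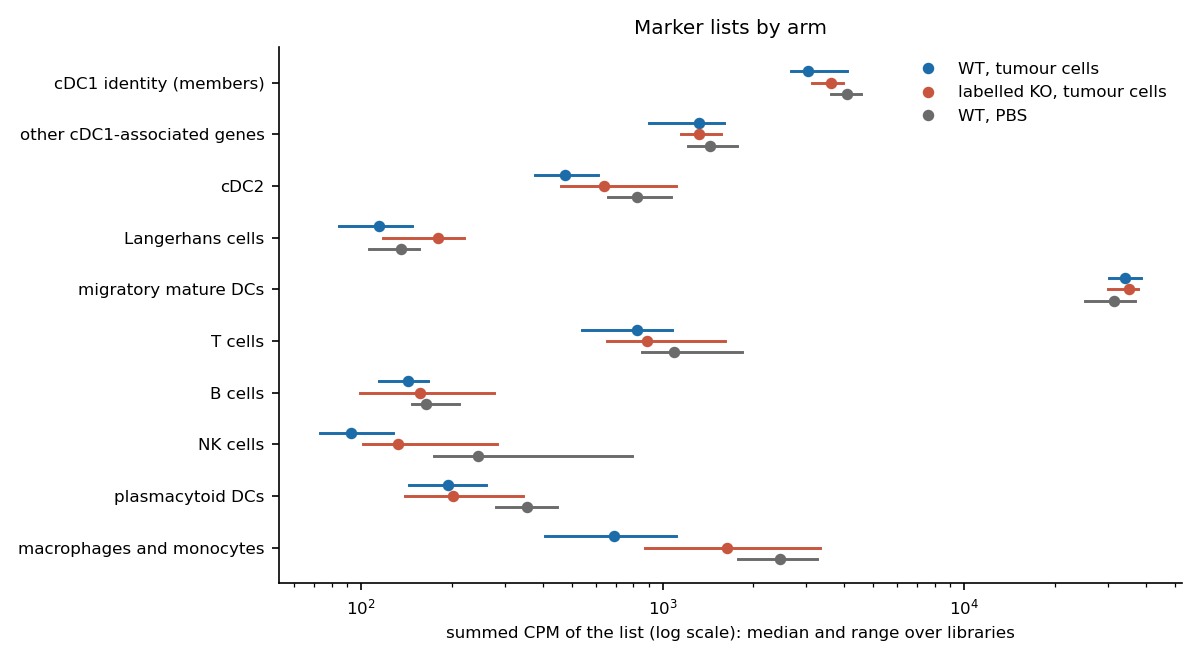
Summed CPM of the 9 cDC1 identity genes and of marker lists for other cells, on a log axis, in WT tumour (n = 20), KO tumour (n = 12) and PBS (n = 12) libraries. Dots are medians and lines run from the lowest to the highest library. The sums for macrophages, NK cells, plasmacytoid DCs and cDC2s of WT tumour libraries lie below those of PBS libraries without overlap.

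BMAL1 binds DNA at E-boxes, and BATF3 and IRF8 act at composite motifs, so the 250 bases before each start that RefSeq lists were searched on both strands for CACGTG (an E-box), GGAANNGAAA (an ETS-IRF composite), GAAANNGAAA (an IRF repeat) and TGANTCA (an AP-1 site). RefSeq promoters of GRCm38.p6 were at hand for 8 of the 9 genes (9 promoters, *Cadm1* not among them). The start used for *Wdfy4* and 1 of 2 used for *Irf8* lie inside the span of the gene, downstream of its first base. Those of *Xcr1*, *Batf3* and *Cd8a* held a match and are shown 5′ to 3′ on the strand of the gene, with the match in capitals.
*Xcr1*, chr9:123862030-123862279, minus strand: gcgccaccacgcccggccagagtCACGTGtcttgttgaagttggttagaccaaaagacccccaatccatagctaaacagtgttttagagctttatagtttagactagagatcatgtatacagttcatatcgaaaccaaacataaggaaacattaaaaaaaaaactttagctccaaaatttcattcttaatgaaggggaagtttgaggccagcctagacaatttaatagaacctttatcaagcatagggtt
*Batf3*, chr1:191098164-191098413, plus strand: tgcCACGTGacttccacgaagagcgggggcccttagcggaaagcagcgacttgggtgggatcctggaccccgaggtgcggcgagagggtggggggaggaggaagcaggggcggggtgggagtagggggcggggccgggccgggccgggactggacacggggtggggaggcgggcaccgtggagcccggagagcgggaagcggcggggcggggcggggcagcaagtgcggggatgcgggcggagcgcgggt
*Cd8a*, chr6:71373177-71373426, plus strand: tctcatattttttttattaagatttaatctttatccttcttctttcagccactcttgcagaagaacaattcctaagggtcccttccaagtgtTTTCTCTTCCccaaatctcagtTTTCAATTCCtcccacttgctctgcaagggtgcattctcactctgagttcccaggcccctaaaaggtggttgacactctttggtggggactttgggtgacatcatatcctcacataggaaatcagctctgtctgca
The E-box begins 227 bases before the start of *Xcr1* and 247 bases before that of *Batf3*. *Cd8a* holds the ETS-IRF letters on the opposite strand at 158 and 136 bases before the start. Of 32851 RefSeq promoters of 300 bases (the same 250 and the 50 that follow), 7.15% hold the E-box, 2.72% the ETS-IRF composite, 3.44% the IRF repeat and 7.81% the AP-1 site. A match of letters is a description and no measure of binding.

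Per kilobase of annotated exon, the genes spanned more than 3 orders of magnitude in WT tumour libraries, and the transcription factors stood above the surface receptors. *Id2* was first in every group, at 893 ± 145 CPM per kb in WT tumour libraries (SD, n = 20), 1086 ± 112 in KO tumour libraries (n = 12) and 1180 ± 111 in PBS libraries (n = 12), and its range did not overlap that of the next gene in any group. *Batf3* followed with 114 and *Irf8* with 84.0 CPM per kb in WT tumour libraries, where *Batf3* was the higher of this pair in 18 of 20 libraries. The order of the pair was the opposite in PBS libraries (*Irf8* 117, *Batf3* 91.7 CPM per kb), where *Irf8* was the higher in 10 of 12. Both stood above *Cd8a* (18.9 CPM per kb in WT tumour libraries) without overlap of their ranges in any group.

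Below *Cd8a*, the levels in WT tumour libraries were 6.50 CPM per kb for *Naaa*, 4.30 for *Cadm1*, 1.84 for *Xcr1*, 0.869 for *Wdfy4* and 0.574 for *Clec9a*, with ranges of neighbours that overlapped. *Clec9a* was last in all 3 groups, at 1.45 CPM per kb in PBS and 0.294 in KO tumour libraries. *Xcr1*, in contrast, was level with *Cadm1* in PBS libraries (6.56 and 6.47 CPM per kb), where it was the higher of the pair in 6 of 12. *Clec9a* rested on a median of 49.5 reads per library, with 0 reads in 1 library, and *Xcr1* on a median of 343 reads.

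**Figure D2:**
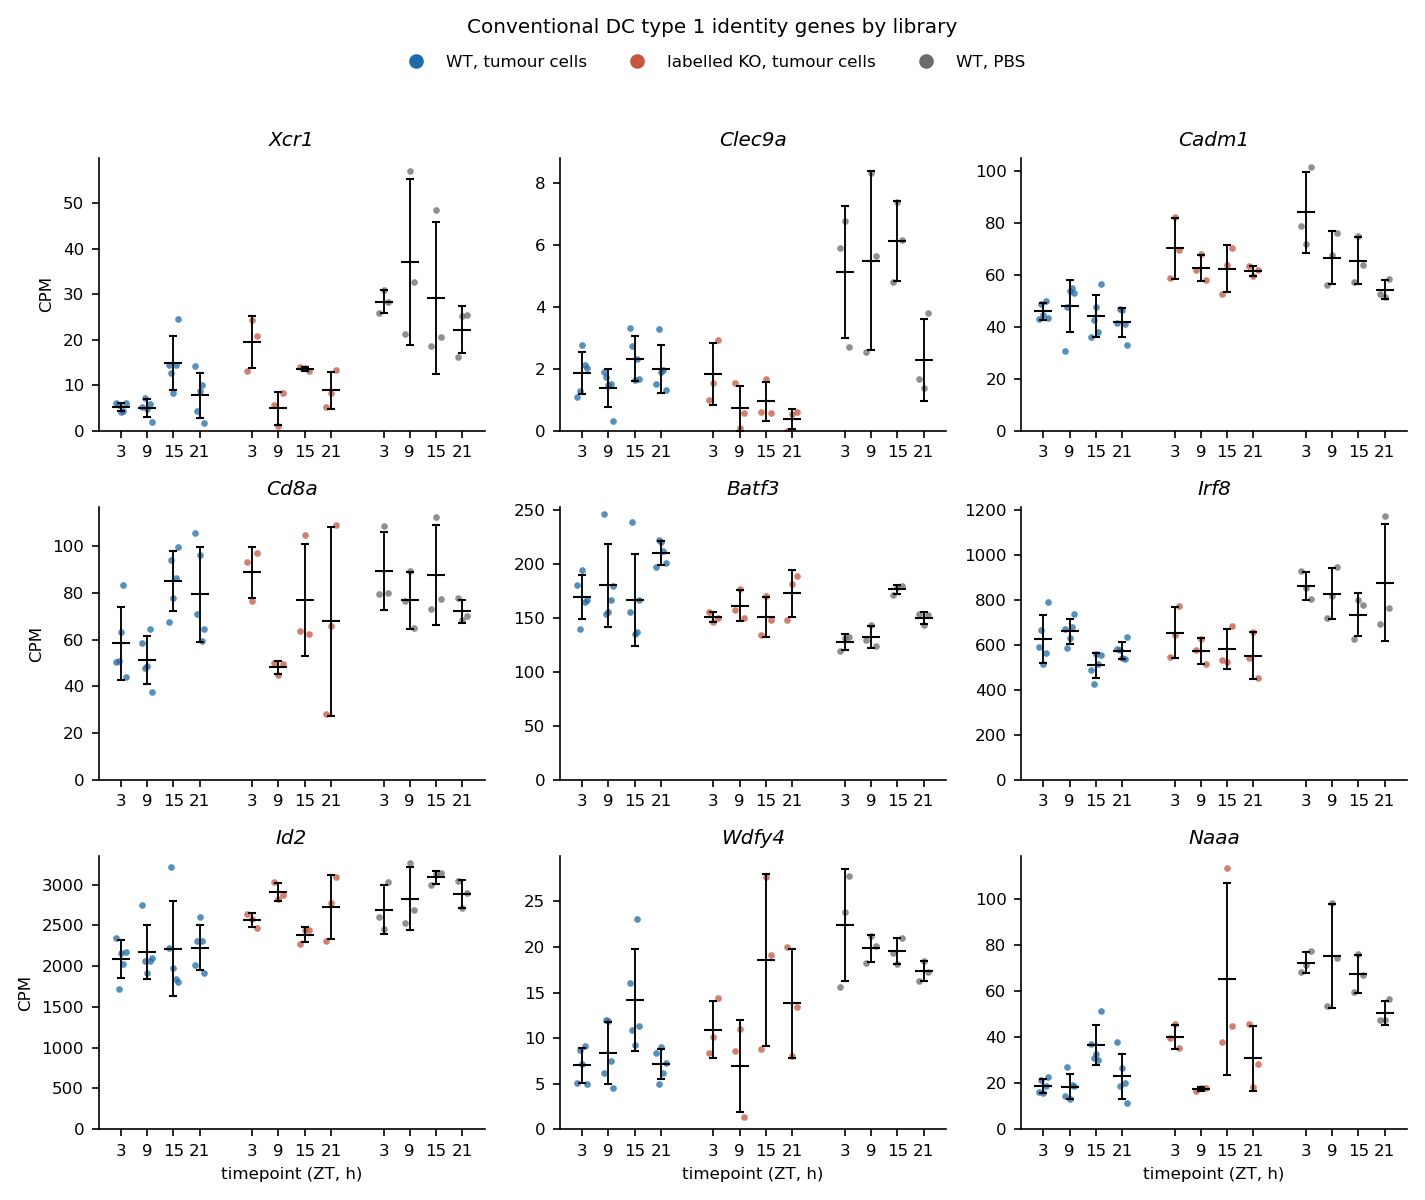
CPM of each of the 9 genes in each of the 44 libraries, by timepoint within WT tumour, KO tumour and PBS groups. Dots are libraries and black bars the mean ± SD of a timepoint; *Xcr1*, *Clec9a*, *Wdfy4* and *Naaa* lie higher in PBS libraries, and WT tumour values of *Xcr1* and *Naaa* are highest at ZT15.

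The first comparison asked how the cells of WT mice that had received tumour cells differed from those of sham-injected WT mice, with the 4 timepoints as a covariate. In it, the words "with tumour cells" mean WT tumour libraries only, without the KO mice that received the same cells. At a limma adjusted p under 0.05, 8 of the 9 genes differed, against 37.0% of all genes tested. Of these, 7 were lower with tumour cells (24.2% of all genes were called lower) and *Batf3* alone was higher (12.8% were called higher). The median difference was -0.57 on the log2 scale over the 9 genes and -0.04 over all genes tested.

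Among the surface receptors, *Xcr1* (chr9:123852315-123862029 in GRCm38.p6, minus strand) had the largest difference of the 9 genes. It ranged from 1.69 to 24.4 CPM with a median of 6.07 in WT tumour libraries, and from 16.2 to 57.1 CPM with a median of 25.6 in PBS libraries. It was 3.81-fold lower with tumour cells, a log2 difference of -1.93 (SE 0.25, 95% interval -2.45 to -1.41, adjusted p = 4.496e-07). At ZT3, ZT9 and ZT21 every WT tumour library lay below every PBS library, and 6.77% of genes tested were apart in this way at 3 or more timepoints. At ZT15 the values were 14.5, 12.6, 8.29, 14.4 and 24.4 CPM with tumour cells and 18.6, 48.4 and 20.5 CPM with PBS, so that 1 WT tumour library reached into the range of sham-injected mice.

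*Clec9a* (chr6:129408862-129424764, plus strand) ranged from 0.315 to 3.30 CPM with a median of 1.80 in WT tumour libraries and from 1.38 to 8.32 CPM with a median of 5.22 in PBS libraries. It was 2.07-fold lower with tumour cells (log2 difference -1.05, SE 0.20, adjusted p = 0.0001291). The groups were apart at ZT9 and ZT15. At ZT21 the PBS values were 1.68, 1.38 and 3.79 CPM, and the first 2 of them lay among those of WT tumour libraries, 1.5, 3.30, 1.89, 1.96 and 1.30 CPM.

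*Cadm1* (chr9:47530170-47862280, plus strand) had a smaller but steadier difference. Its 20 WT tumour values ran from 30.7 to 56.4 CPM with a median of 45.5, and its 12 PBS values from 51.6 to 101 CPM with a median of 65.7. It was 1.49-fold lower with tumour cells (log2 difference -0.57, SE 0.087, adjusted p = 4.663e-06), and every WT tumour library lay below every PBS library of the same timepoint at all 4 timepoints, which 3.06% of genes tested did. Most values of *Cadm1* were fractions of a read (whole reads in 15.9% of libraries), unlike those of the other 8 genes.

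*Cd8a* (chr6:71373427-71379171, plus strand) did not pass the threshold in the main fit. It passed with limma array weights, with an intensity trend and at a mean of at least 10 CPM. It ranged from 37.6 to 106 CPM with a median of 64.5 with tumour cells and from 64.9 to 112 CPM with a median of 77.6 with PBS. Its log2 difference was -0.29 (SE 0.12, 95% interval -0.53 to -0.05, adjusted p = 0.05567), and adjusted p-values ran from 0.02517 to 0.1184 over the 32 fits that each omitted 1 library. It passed, at -0.30 to -0.33, without replicate 4 of ZT3, 2 or 5 of ZT15 or 1 or 3 of ZT21 among WT tumour libraries, or without replicate 1 or 3 of ZT15 or 2 or 3 of ZT21 among PBS libraries. The genes of the same CD8 and CD3 complexes on T cells were lower with tumour cells, *Cd8b1* by 0.58 and *Cd3e* by 0.88 on the log2 scale (adjusted p = 0.0002849 and 2.539e-06).

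Of the transcription factors, *Irf8* (chr8:120736358-120756694, plus strand) and *Id2* (chr12:25093799-25096092, minus strand) were lower with tumour cells and *Batf3* (chr1:191098414-191108943, plus strand) was higher. *Irf8* was 592 ± 86.3 CPM with tumour cells (SD, n = 20) and 825 ± 143 CPM with PBS (n = 12), 1.39-fold lower (log2 difference -0.47, SE 0.073, adjusted p = 6.187e-06). *Id2* was 2178 ± 354 and 2876 ± 270 CPM, 1.33-fold lower (log2 difference -0.41, SE 0.075, adjusted p = 5.806e-05). The ranges of both genes overlapped between the groups over all libraries. Within timepoints, the groups were apart for *Irf8* at ZT3, ZT15 and ZT21 and for *Id2* at ZT3 and ZT21. Groups apart in this direction at 3 or more timepoints were seen for 6.77% of genes tested.

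*Batf3* was 181 ± 33.4 CPM with tumour cells (n = 20) and 146 ± 20.9 CPM with PBS (n = 12), 1.23-fold higher with tumour cells (log2 difference 0.30, SE 0.084, adjusted p = 0.005833). At ZT3 its PBS values of 119, 132 and 132 CPM lay below all 5 WT tumour values (180, 140, 194, 165 and 166 CPM), and the groups were likewise apart at ZT9 and ZT21. At ZT15 the order did not hold: the 3 PBS values were 171, 178 and 179 CPM, whereas 4 of the 5 WT tumour values lay between 135 and 167 CPM. Groups apart in this direction at 3 or more timepoints were seen for 1.81% of genes tested.

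*Wdfy4* (chr14:32959547-33193855, minus strand) ranged from 4.49 to 23.1 CPM with a median of 8.54 in WT tumour libraries and from 15.7 to 27.8 CPM with a median of 18.9 in PBS libraries. It was 2.25-fold lower with tumour cells (log2 difference -1.17, SE 0.15, adjusted p = 3.873e-07), and the groups overlapped at ZT15 only. *Naaa* (chr5:92257660-92278181, minus strand) ranged from 11.2 to 51.4 CPM with a median of 20.9 and from 47.4 to 98.5 CPM with a median of 67.6, respectively. It was 2.85-fold lower with tumour cells (log2 difference -1.51, SE 0.15, adjusted p = 3.583e-09). Its groups were apart at each of the 4 timepoints and overlapped only across timepoints, through 1 WT tumour library of ZT15 with 51.4 CPM.

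**Figure D3:**
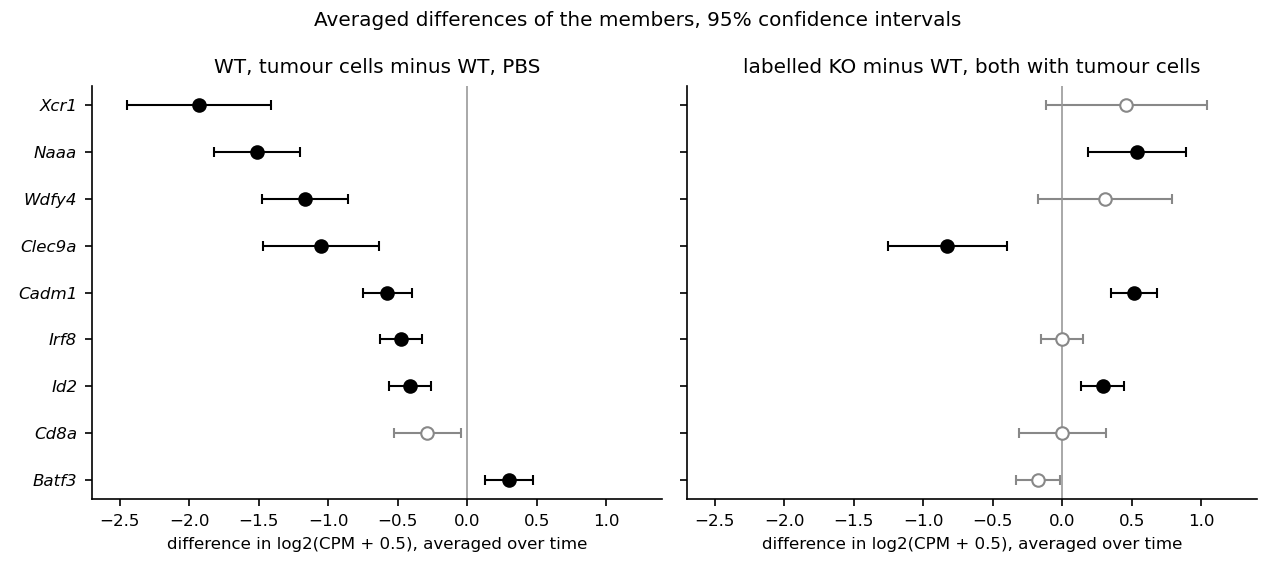
Log2 differences averaged over timepoints, with 95% confidence intervals, of WT tumour against PBS libraries and of KO tumour against WT tumour libraries. Filled points passed a limma adjusted p under 0.05 over 11963 genes and open points did not; intervals are not adjusted, so that of *Batf3* in the KO comparison excludes 0 at an adjusted p of 0.08087.

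Genes related to the 9 were read from lists set up for this purpose, whose counts stand beside 24.2% of all genes called lower and 12.8% called higher. Of 19 further genes associated with cDC1s, 13 were lower with tumour cells, 1 was higher and 5 did not pass, with a median log2 difference of -1.07. The lower genes included *Itgae* (CD103, by which cDC1s of peripheral tissues are recognised; -2.04), *Cxcr3* (-1.91), *Rab7b* (-1.78), *Cxcl9* (a chemokine that attracts T cells; -1.47) and *Tlr3* (the sensor of double-stranded RNA; -1.13). *Ly75*, which encodes the antigen uptake receptor DEC-205, was the higher gene (0.52). Of 21 genes of the transcription circuit around *Irf8* and *Batf3*, 11 were lower, among them *Mycl* (-1.0), *Batf* (-0.53), *Nfil3* and *Runx3*, and *Zeb2*, a repressor of *Id2*, was higher (0.33).

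The ligand of XCR1 and the partner of CADM1 were also lower with tumour cells, *Xcl1* with a log2 difference of -2.80 and *Crtam* with -1.86. Both genes belong to NK and T cells, and their summed level of 1.08 to 15.4 CPM in WT tumour libraries did not reach that of PBS libraries (17.6 to 99.0 CPM). Of 5 other genes of N-acylethanolamine metabolism, 3 were lower: *Faah* (-1.31), *Gde1* (-0.52) and *Asah1* (-0.22).

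The lists for other cells also moved in this comparison, again beside 24.2% of all genes called lower and 12.8% called higher. Lower genes numbered 10 of 14 for cDC2s (2 higher), 9 of 10 for NK cells, 8 of 10 for plasmacytoid DCs, 10 of 11 for macrophages and monocytes and 13 of 20 for T cells (3 higher), and 3 of 6 for Langerhans cells, 5 of 11 for B cells (1 higher) and 4 of 10 for the genes shared by conventional DCs (1 higher). Median log2 differences were -1.23 for cDC2 genes, -1.82 for NK cell genes, -2.03 for plasmacytoid DC genes and -1.33 for macrophage and monocyte genes. The list of migratory mature DCs went the other way, with 7 of 18 genes higher and 1 lower.

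The second comparison set KO tumour against WT tumour libraries and shared the 20 WT tumour libraries with the first. At an adjusted p under 0.05, 4 of the 9 genes differed, against 32% of all genes tested: *Cadm1*, *Naaa* and *Id2* were higher in the libraries labelled KO (22.3% of all genes were called higher) and *Clec9a* was lower (9.67% were called lower). The median log2 difference of the 9 genes was 0.29 and that of all genes tested 0.10. In WT tumour, KO tumour and PBS libraries, *Cadm1* had means of 44.9, 64.1 and 67.55 CPM and *Id2* of 2178, 2648 and 2876 CPM. Those of *Naaa* were 24.2, 38.4 and 66.4 CPM, and those of *Clec9a* 1.89, 0.969 and 4.76 CPM. The KO mean thus lay between the others for *Cadm1*, *Id2* and *Naaa* and below both for *Clec9a*. KO tumour against PBS libraries was not tested.

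*Cadm1* ranged from 52.5 to 82.3 CPM with a median of 62.6 in KO tumour libraries, against 30.7 to 56.4 CPM in WT tumour libraries. It was 1.43-fold higher (log2 difference 0.52, SE 0.081, 95% interval 0.35 to 0.68, adjusted p = 1.207e-05), with the groups apart at 3 of the 4 timepoints, as for 4.09% of genes tested. At ZT15 the KO values were 52.5, 63.9 and 70.3 CPM, and the WT values were 35.9, 42.7, 47.4, 37.9 and 56.4 CPM.

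*Clec9a*, from whose promoter Cre is expressed in these mice, was 0.969 ± 0.827 CPM in KO tumour libraries (SD, n = 12) and 1.89 ± 0.732 CPM in WT tumour libraries (n = 20). It was 1.78-fold lower (log2 difference -0.83, SE 0.21, 95% interval -1.26 to -0.40, adjusted p = 0.003115). Its mean was lower at each of the 4 timepoints, by least at ZT3 (0.983, 1.54 and 2.94 CPM in KO, 1.08, 1.29, 2.76, 2.12 and 2.03 CPM in WT). At ZT21 the KO values of 0, 0.541 and 0.592 CPM all lay below the 5 WT values. The Cre allele and the floxed *Bmal1* allele were carried together, so their parts in the level of *Clec9a* cannot be told apart.

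*Naaa* was 38.4 ± 26.4 CPM in KO tumour libraries and 24.2 ± 10.1 CPM in WT tumour libraries, 1.45-fold higher (log2 difference 0.54, SE 0.17, adjusted p = 0.01825, with 0.01218 to 0.06506 over the 9 alternatives, of which 1 did not pass). Its spread in KO mice came in large part from ZT15, where 1 library had 114 CPM and the other two 38.0 and 44.6 CPM. At ZT9 the 3 KO values of 16.4, 18.1 and 17.7 CPM lay within the WT range of 12.9 to 27.1 CPM. *Id2* was 2648 ± 273 CPM in KO and 2178 ± 354 CPM in WT tumour libraries, 1.22-fold higher (log2 difference 0.29, SE 0.076, adjusted p = 0.003884). When library-size scaling was replaced by median-of-ratios scaling, the difference of *Id2* was 0.20 and no longer passed (adjusted p = 0.0866, with 0.001005 to 0.0866 over the 9 alternatives, of which 2 did not pass).

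The other 5 genes did not pass. *Irf8* had a log2 difference of -0.01 with a 95% interval of -0.16 to 0.15, and *Cd8a* one of -0.00 with an interval of -0.31 to 0.31. *Batf3* had -0.18 (SE 0.077, adjusted p = 0.08087), which passed with median-of-ratios scaling (-0.27, adjusted p = 0.02406). *Xcr1* had 0.46 with a wide interval of -0.12 to 1.04 (adjusted p = 0.2215), and *Wdfy4* had 0.31 (interval -0.18 to 0.79, adjusted p = 0.3402). Each of this pair rested on 1 library at ZT9: without the KO library of 0.978 CPM *Xcr1* was 0.66 higher (adjusted p = 0.04478), and without that of 1.28 CPM *Wdfy4* was 0.53 higher (adjusted p = 0.02429).

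For *Xcr1* the differences at single timepoints did not point one way. At ZT3 the KO values were 13.1, 24.3 and 20.8 CPM and the WT values 6.12, 5.54, 4.18, 4.31 and 6.02 CPM, so that every KO library lay above every WT library. At ZT15 the KO values of 13.9, 13.8 and 13.1 CPM lay within the WT range. A test of whether the genotype difference changed with time called none of the 9 genes at a limma adjusted p under 0.05 (0.0502% of all genes tested passed). *Xcr1* was the only 1 of the 9 with an unadjusted p under 0.05 in that test (18.3% of all genes).

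Among related genes, 6 of the 19 further cDC1-associated genes were higher in KO tumour libraries and none lower: *Itgae* (1.35), *Cxcr3* (1.19), *Cd36* (0.97), *Rab7b* (0.95), *Ppt1* (0.54) and *Ifi205* (0.48 on the log2 scale). Of the transcription circuit, 6 of 21 were higher, among them *Myc* (0.90), *Junb* (0.61) and *Bcl6*. Both counts stand beside 22.3% of all genes tested, and the median log2 differences of these lists were 0.13 and 0.17, against 0.10 over all genes. *Xcl1* and *Crtam* were higher by 2.26 and 1.96, and 3 of 5 genes of N-acylethanolamine metabolism were higher, with *Faah* at 0.90. Of the lists for other cells, 10 of 11 macrophage and monocyte genes, 6 of 10 NK cell genes, 9 of 14 cDC2 genes (1 lower), 6 of 10 plasmacytoid DC genes (1 lower), 5 of 20 T cell genes (2 lower), 4 of 11 B cell genes (1 lower), 4 of 18 genes of migratory mature DCs (2 lower), 4 of 6 Langerhans cell genes and 1 of 10 genes shared by conventional DCs were higher. Summed levels in KO tumour libraries were 118 to 220 CPM for Langerhans cells and 30030 to 37800 CPM for migratory mature DCs. Those of the other lists are given above. The part of all these lists in the differences of *Cadm1*, *Naaa* and *Id2* was not tested.

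The third set of comparisons asked whether the genes varied with time of day within a group. In WT tumour libraries, none of the 9 genes passed an adjusted p under 0.05 in limma's F test among timepoints (5.28% of all genes tested did), and 5 of 9 had an unadjusted p under 0.05 (23.1% of all genes). The 5 were *Cd8a* (adjusted p = 0.05741), *Naaa* (0.06074), *Xcr1* (0.08357), *Wdfy4* (0.09855) and *Irf8* (0.1399). The count of the 9 genes that passed ran from 0 to 5 over the alternatives, the 5 with array weights, under which 2462 of the 11963 genes tested passed rather than 632. *Cd8a* and *Naaa* passed with median-of-ratios scaling, under which 659 genes did (adjusted p = 0.03382 and 0.03444, with 0.02284 to 0.1011 and 0.02693 to 0.1238 over the 9 alternatives). Single libraries also decided these calls: *Cd8a* passed without replicate 3 or 4 of ZT3 (adjusted p = 0.0439 and 0.02569), *Naaa* without replicate 1 or 5 of ZT21 (0.03039 and 0.03256) and *Xcr1* without replicate 5 of ZT21 (0.03218).

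The WT tumour means of 5 of the 9 genes were highest at ZT15. The share of all genes tested with their highest mean there was not counted, so this number is a description only. *Xcr1* was 6.12, 5.54, 4.18, 4.31 and 6.02 CPM at ZT3, 5.16, 7.24, 4.66, 5.95 and 1.81 CPM at ZT9, 14.5, 12.6, 8.29, 14.4 and 24.4 CPM at ZT15, and 14.2, 4.26, 8.76, 9.98 and 1.69 CPM at ZT21. All 5 libraries of ZT15 lay above all 10 of ZT3 and ZT9, and those of ZT21 spread over both ranges. How many of all genes tested had timepoints apart in such a way was not counted, for *Xcr1* or for the genes below. The mean at ZT15 was 2.99 times that at ZT9.

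*Naaa* had the same order. Its values were 16.3, 21.6, 15.7, 18.7 and 22.5 CPM at ZT3, 14.3, 27.1, 12.9, 19.3 and 18.7 CPM at ZT9, 37.1, 31.1, 32.8, 30.2 and 51.4 CPM at ZT15, and 37.8, 18.7, 26.6, 20.2 and 11.2 CPM at ZT21. Here too the libraries of ZT15 lay above all those of ZT3 and ZT9, and the mean at ZT15 was 1.98 times that at ZT9. *Wdfy4* was 16.0, 10.9, 9.25, 23.1 and 11.4 CPM at ZT15, with a mean 2.02 times that at ZT3, and its values overlapped those of ZT9 (4.49 to 12 CPM).

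*Cd8a* was 50.6, 51.0, 63.3, 83.6 and 43.8 CPM at ZT3, 58.6, 47.7, 48.9, 64.4 and 37.6 CPM at ZT9, 67.4, 94, 78.0, 86.4 and 99.8 CPM at ZT15, and 106, 71.0, 96.1, 59.4 and 64.6 CPM at ZT21. The libraries of ZT15 lay above those of ZT9, and ZT21 overlapped all other timepoints. *Irf8* had its lowest mean at ZT15 and its highest at ZT9, which was 1.30 times as high, with values of 487, 427, 560, 517 and 554 CPM at ZT15 all below those of 585 to 738 CPM at ZT9. *Id2* and *Cadm1* varied least, with ratios of the highest to the lowest mean of 1.07 and 1.15.

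With a cosinor of 24 h, no gene of the 9 passed in WT tumour libraries by adjusted p (3 of all genes tested did, 0.0251%), and 5 had an unadjusted p under 0.05, against 9.20% of all genes. *Cd8a* had an amplitude of 0.41 on the log2 scale with its peak at 18.1 h after light onset (limma adjusted p = 0.2341). The peaks of *Xcr1* (amplitude 0.71, adjusted p = 0.4229), *Naaa* (0.47, adjusted p = 0.3949) and *Wdfy4* (0.47, adjusted p = 0.4116) were at 16.2, 16.0 and 14.3 h, early in the night. *Irf8* peaked in the light phase, at 5.33 h (0.17, adjusted p = 0.485). Of T cell genes set beside *Cd8a*, *Cd8b1* had an amplitude of 0.36 at 20.3 h (adjusted p = 0.203) and *Cd3e* one of 0.35 at 19.9 h (adjusted p = 0.4791), and 14 of 20 T cell genes had an unadjusted p under 0.05. The part of T cells in the pattern of *Cd8a* was not tested.

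The study gave most room to ZT9 and ZT21. Between these timepoints none of the 9 genes passed in WT tumour libraries (0.226% of all genes tested did), and only *Cd8a* had an unadjusted p under 0.05 (11.5% of all genes). It was lower at ZT9, with a log2 difference of -0.61 (SE 0.20, limma adjusted p = 0.233), in the same direction as *Cd8b1* (-0.70) and *Cd3e* (-0.67). *Nkg7*, of the NK cell list, was also lower at ZT9 and passed (-1.06, limma adjusted p = 0.03319). It passed in the F test among timepoints as well (limma adjusted p = 0.01364). The part of NK cells in the time courses was not tested. For *Xcr1* the difference was -0.43 with a 95% interval of -1.31 to 0.45, and for *Id2* it was -0.04 with an interval of -0.35 to 0.28.

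In KO tumour libraries no gene of the 9 passed in the F test, nor did any of the genes tested (0.00%), and 2 of the 9 had an unadjusted p under 0.05, *Naaa* (adjusted p = 0.3614) and *Xcr1* (adjusted p = 0.3957), against 10.3% of all genes. Both were lowest at ZT9, *Xcr1* with 5.59, 0.978 and 8.16 CPM. Their highest means were at ZT3 for *Xcr1* (3.95 times that at ZT9) and at ZT15 for *Naaa* (3.76 times, with the library of 114 CPM). By mean, 5 of the 9 genes were highest at ZT3, again without a count over all genes tested. No gene of the 9 had an unadjusted p under 0.05 in the cosinor (10.5% of all genes did) or between ZT9 and ZT21 (10.9%, with 0.00836% of all genes called by adjusted p).

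In PBS libraries none of the 9 genes passed either, again with none of all genes tested (0.00%). *Batf3* (adjusted p = 0.6139) and *Cadm1* (adjusted p = 0.6482) had an unadjusted p under 0.05 in the F test (7.44% of all genes). *Batf3* was 119, 132 and 132 CPM at ZT3, 130, 143 and 124 CPM at ZT9, 171, 178 and 179 CPM at ZT15, and 153, 143 and 153 CPM at ZT21, so that ZT15 lay above all other timepoints. The share of all genes tested apart in this way was not counted. Its cosinor had an amplitude of 0.25 with the peak at 16.4 h (adjusted p = 0.6161), the only 1 of the 9 genes with an unadjusted p under 0.05 (7.38% of all genes). Between ZT9 and ZT21, *Clec9a* (log2 difference 1.08, 95% interval 0.07 to 2.08) and *Naaa* (0.54, interval 0.07 to 1.0) were higher at ZT9 with an unadjusted limma p under 0.05 (5.32% of all genes) and an adjusted p of 0.9198 each.

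Whether the course over time differed between tumour and sham mice was tested as an interaction. None of the 9 genes passed by adjusted p, as none of all genes did (0.00%). By unadjusted p 5 of the 9 were under 0.05, against 11.9% of all genes: *Naaa*, *Batf3*, *Clec9a*, *Xcr1* and *Cd8a*. For *Xcr1* the log2 difference between the group means was -2.34 at ZT3, -2.77 at ZT9, -0.89 at ZT15 and -1.70 at ZT21, and for *Naaa* it was -1.92, -2.0, -0.90 and -1.22. For both genes the smallest difference from PBS was thus at ZT15.

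Whether the genes moved together from mouse to mouse was examined after the mean of each timepoint had been subtracted, within each group. Over the 20 WT tumour mice, *Xcr1* and *Naaa* had a Pearson r of 0.721 (permutation p = 0.00817) and a Spearman rho of 0.638 (permutation p = 0.00922), and r was 0.715 without the 2 libraries farthest from the median of *Xcr1*. In the 12 PBS mice r was 0.83 (exact permutation p = 0.0247, rho = 0.79 with exact p = 0.0301) and 0.748 without those 2. In the 12 KO tumour mice r was -0.143 (exact permutation p = 0.573, rho = -0.126 with exact p = 0.716). These were 3 of 36 relations computed, and none passed after Benjamini–Hochberg adjustment (adjusted p = 0.294, 0.444 and 0.694 for r). The difference between the groups in this relation was not tested.

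**Figure D4:**
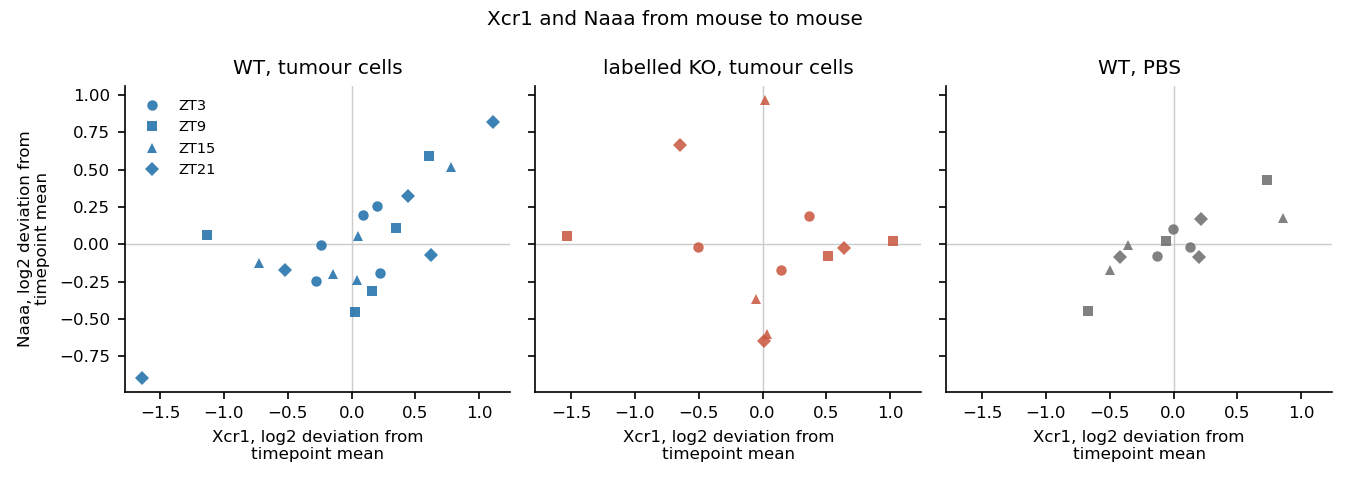
Deviation of *Xcr1* (x axis) and *Naaa* (y axis) from the mean of their timepoint, in log2(CPM + 0.5), for each mouse of the WT tumour (n = 20), KO tumour (n = 12) and PBS (n = 12) groups. Symbols mark timepoints; r was 0.721 in WT tumour, 0.83 in PBS and -0.143 in KO tumour mice.

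In WT tumour and PBS mice the r of *Xcr1* was lower with each of the other 7 members than with *Naaa*, whereas in KO tumour mice it was higher with *Clec9a*, *Id2* (0.434), *Cd8a* (0.413) and *Cadm1* (-0.128). Its r with *Clec9a* was 0.256 in WT tumour mice, 0.665 in KO tumour mice and 0.609 in PBS mice, and its r with *Batf3* was -0.0137, -0.163 and 0.396, none of which passed the adjustment. Without the 2 libraries farthest from the median of *Xcr1*, the sign turned for *Clec9a* in WT tumour mice (-0.313) and for *Batf3* (0.38) and *Cadm1* (0.283) in KO tumour mice. Over all 36 pairs of the 9 genes, as a description, the median r was 0.0651 in WT tumour, 0.0488 in KO tumour and 0.345 in PBS mice. *Batf3* and *Id2* formed the pair with the highest r in WT tumour mice (0.863, with 0.685 and 0.671 in KO tumour and PBS mice). Replicate 1 of ZT9 had the highest value of its timepoint for both genes in WT tumour mice, and r was 0.84 without it. Without the 2 libraries farthest from the median of *Batf3*, added after the data were seen, r was 0.673, 0.538 and 0.73. *Cd8a* had an r with *Cd8b1* of 0.303 in WT tumour, 0.692 in KO tumour and 0.366 in PBS mice, and with *Cd3e* of -0.156, 0.485 and 0.146, none of which passed the adjustment. Without the 2 libraries farthest from the median of *Cd8a*, r with *Cd8b1* was 0.573, -0.0376 and 0.167 and r with *Cd3e* 0.0771, -0.274 and -0.282, so that neither relation kept its sign in KO tumour mice.

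Among all 11962 other genes tested, those whose mouse-to-mouse pattern was most like that of *Xcr1* in WT tumour mice were *Plbd1* (r = 0.793), *Scfd2* (0.746), *Gamt* (0.742), *Hc* (0.73) and *Adgrg5* (0.724), with *Naaa* next in rank. For *Clec9a* they were *Reck* (0.752), *Gm527*, *Rad51c*, *Idh3g* and *Cby1* (0.675), and for *Cd8a* *Gjb2* (0.77), *Zfp707*, *Tfam*, *Alox5ap* and *Ndufaf6* (0.714). These genes were picked as the highest of 11962 in the same mice, so no test goes with the values. With *Xcr1*, *Gamt* had an r of 0.833 in PBS and -0.472 in KO tumour mice, and *Adgrg5* had -0.143 and 0.548.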

How the data were processed

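RNA of sorted CD45+CD11c+MHCII-high lymph node cells was measured in 44 libraries, 1 per mouse, grouped by the labels of genotype, treatment and time. Per the paper's methods and the submitters' processing notes, single-end reads were aligned with STAR (mm10) and assigned to genes by HTSeq 0.9.1. The authors used edgeR to divide the counts by library size and deposited linear CPM for 14699 genes. Because 87.9% to 89.6% of a library's values were whole multiples of 1 read (within 0.02 of a read) and the rest fractions, no test for counts was run, and counting intervals are not given. One CPM was worth a median of 23.7 reads in WT tumour, 37.0 in KO tumour and 37.9 in PBS libraries.

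Values were taken as log2(CPM + 0.5), a scale that understates the change of low genes, and fold changes are on it, except that ratios between timepoints are of mean CPM. The 11963 genes that reached 1 CPM in 5 or more libraries were fitted with limma 3.58.1 (R 4.3.3), and p-values were adjusted over all of them (Benjamini–Hochberg). Comparisons within a group used the libraries of that group, and those between groups the 32 libraries of both, with timepoint as a factor. Correlations used permutation within timepoints, two-sided, with 100000 resamples for 20 mice and all 1296 arrangements for 12 (Python 3.11.15, numpy 2.4.6, pandas 2.3.3, scipy 1.17.1, matplotlib 3.10.9). The script was tested on simulated data. No 2 libraries held identical values. P-values measure the spread between mice of 1 group, which in the tumour groups may span 2 experiments that the labels do not separate.

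The 9 genes and all gene lists were chosen with earlier results of these data known. Named in the text are the 9 genes, *Arntl*, *Cd8b1*, *Cd3e* and *Nkg7*, genes of the lists that passed in the averaged comparisons, and the 5 genes most like *Xcr1*, *Clec9a* and *Cd8a*. A few list genes named for their level alone (*Itgax*, *H2-Aa*, *Pax5*, *Pmel*, *Mitf*, *Mlana*, *Tyrp1* and *Dct*) lie outside this rule and were chosen after their values were seen. Alternatives were pseudocounts of 0.1 and 1, median-of-ratios scaling, no filter or a mean of at least 10 CPM, limma with an intensity trend or array weights, a term for the replicate number, 1 fit over all 44 libraries and leaving out each library. Replicate numbers did not pair libraries. Gene positions and promoters come from RefSeq (GRCm38.p6). Exon lengths are the union of GENCODE exons.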

Additional observations from a re-analysis of the deposited data

Results flagged for a closer look

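Within groups of 5 mice, 3 of 36 sets of values held a library far from the others by Dixon's criterion, which chance alone meets in about 1 in 20. All 3 were WT tumour libraries of ZT9. *Clec9a* was lowest in replicate 5, at 0.315 CPM against 1.47 to 1.89 CPM in the other 4. *Batf3* was highest in replicate 1, at 246 CPM against 153 to 179 CPM, and *Id2* was highest in the same replicate 1, at 2757 CPM against 1911 to 2104 CPM. Leaving out any 1 library changed neither the call nor the direction of these 3 genes in the comparison of WT tumour with PBS libraries.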

How the results depend on the processing

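The 7 members that were lower stayed so in WT tumour against PBS libraries and *Batf3* stayed higher, each past the threshold, under all 9 alternatives (8 for *Clec9a*, which a mean of at least 10 CPM removes) and all 32 omissions of 1 library, with 8 to 9 members called. In the KO comparison *Cadm1* and *Clec9a* kept their calls wherever they were tested (4 to 5 members called over omissions). A mean of at least 10 CPM removes *Clec9a* here too, and 3 members were called under it. Replicate numbers did not pair the libraries (same-numbered libraries had a mean correlation between -0.03 and 0.00). With a replicate block 2 members and 3010 of all genes were called in the KO comparison (4 and 3830 without it), where *Naaa* (0.51, adjusted p = 0.06506) and *Id2* (0.23, adjusted p = 0.05254) no longer passed, and *Irf8* turned to 0.048. Why results changed was not tested. Array weights did not fully converge in 2 fits. Low depth limits *Clec9a* most. Median-of-ratios scaling moved the median of all genes by over 0.1 only between ZT9 and ZT21 in KO tumour libraries (0.12).

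For time in WT tumour libraries, members called in the F test were 2 with median-of-ratios scaling, 3 with a mean of at least 10 CPM, 3 with a trend, 5 with array weights and 1 in the fit over all libraries (0 to 2 over omissions). Under the same settings 659, 891, 936, 2462 and 791 of all genes were called, and 341 with the block, which called no member (632 without any change and 278 to 1313 over omissions). Cosinor genes were 18 at a mean of at least 10 CPM, 11 with a trend, 147 with array weights, 1 with the block and 8 in the fit over all libraries (1 to 43 over omissions), with 3 members at an unadjusted p under 0.05 with array weights. Between ZT9 and ZT21, genes called were 54, 49, 473, 15 and 12 under the same settings (3 to 67 over omissions), and members at an unadjusted p under 0.05 were 3 with array weights (1 to 3 over omissions).

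In KO tumour libraries, genes called by the F test were 2 at a mean of at least 10 CPM, 9 with a trend, 22 with array weights and 306 in the fit over all libraries (0 to 7 over omissions), which called 1 member and gave 5 an unadjusted p under 0.05. Cosinor genes were 1 with a pseudocount of 1, 5 with a trend and 63 in the fit over all libraries (0 to 2 over omissions), with 1 member at an unadjusted p under 0.05 in the last (0 to 1). Between ZT9 and ZT21, genes called were 2 with a pseudocount of 0.1 or no filter, 0 at a mean of at least 10 CPM, with a trend or the block, 70 with array weights and 46 in the fit over all libraries (0 to 3), with 2 members at an unadjusted p under 0.05 in the last (0 to 1).

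In PBS libraries, the F test gave 1 member an unadjusted p under 0.05 with median-of-ratios scaling (1 to 4 over omissions) and called 2 genes with no filter, 3 with a trend and 17 in the fit over all libraries (0 to 1). The cosinor gave 2 members such a p with a trend (1 to 4) and called 1 gene in the fit over all libraries (0 to 1). Between ZT9 and ZT21, 1 member had such a p at a mean of at least 10 CPM, with array weights and in the fit over all libraries (0 to 3), and 1 gene was called with a trend. For the genotype interaction, members at an unadjusted p under 0.05 were 0 with a pseudocount of 0.1 or the block (0 to 3), and genes called were 11 and 12 with pseudocounts of 0.1 and 1, 53 at a mean of at least 10 CPM, 78 with a trend, 1071 with array weights and 23 in the fit over all libraries (4 to 311). For the treatment interaction, members with such a p were 3 with a pseudocount of 0.1, 2 with array weights and 2 in the fit over all libraries (2 to 6), and genes called were 1 with median-of-ratios scaling and 5 with no filter (0 to 38).

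Some differences changed sign, and not all of them were near 0. Between ZT9 and ZT21 in KO tumour libraries, *Clec9a* was 0.39 and *Cd8a* -0.29 in the main fit. Between these timepoints the alternatives turned *Batf3* in KO (0.037 with median-of-ratios scaling) and *Irf8* with array weights in KO (-0.17) and PBS (0.039). Over omissions the difference ran in WT from -0.12 to 0.022 for *Id2*, in KO from -0.058 to 0.83 for *Clec9a*, -0.069 to 0.20 for *Irf8*, -0.037 to 0.077 for *Cadm1*, -0.012 to 0.20 for *Id2* and -0.81 to 0.15 for *Cd8a*, and in PBS from -0.20 to 0.18 for *Irf8*, -0.14 to 0.039 for *Id2* and -0.030 to 0.20 for *Cd8a*. In the KO comparison *Cd8a* was 0.17 with array weights (-0.065 to 0.13 over omissions) and *Irf8* ran from -0.043 to 0.026.

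Correlations turned when the 2 farthest libraries were left out: in WT tumour mice *Xcr1* with *Clec9a* (-0.313), *Irf8* (0.0759) and *Id2* (-0.158) and *Cd8a* with *Cd3e* (0.0771), in KO tumour mice *Xcr1* with *Batf3* (0.38), *Cadm1* (0.283) and *Wdfy4* (0.0566), *Cd8a* with *Cd8b1* (-0.0376) and *Cd3e* (-0.274) and *Id2* with *Nkg7* (-0.684), and in PBS mice *Cd8a* with *Cd3e* (-0.282). With median-of-ratios scaling *Xcr1* with *Batf3* (0.0418) and *Cd8a* with *Cd3e* (0.0118) turned in WT tumour mice.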
